A study of Mus musculus with 6 samples.

Results

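The genes described here are the receptors and ligands of glial cell line-derived neurotrophic factor (GDNF) and hepatocyte growth factor (HGF): Ret, Gfra1, Gfra2, Gfra3, Gfra4, Gdnf, Nrtn, Met and Hgf. They were chosen by name, as every array probe whose symbol in the platform annotation is one of these 9, whether detected or not, which gave 15 of 45281 probes. Of the 19057 gene symbols that the annotation gives, these are 9. RNA came from cervical motor neurons of mouse embryos at stage e12.5 that were sorted by fluorescence from HB9::GFP embryos, in which motor neurons express a fluorescent protein. The strain background was mixed (c57/bl6, balbc and fvb), and each of 3 wild-type and 3 Hox5 mutant samples was hybridised to 1 Illumina bead array. The mutant genotype combines a floxed Hoxa5 allele, recombined by an olig2 Cre that acts in motor neuron progenitors, with a Hoxc5 null allele carried in all cells. The labels do not say whether the wild-type embryos carried the Cre, or whether embryos were pooled within a sample, and p-values therefore cover only the spread among these 6 samples, which may be technical.

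GDNF family ligands bind a co-receptor of the GFRα family anchored in the membrane, and the pair activates the receptor tyrosine kinase Ret. GDNF prefers the product of Gfra1, neurturin (Nrtn) that of Gfra2, artemin that of Gfra3 and persephin that of Gfra4. HGF binds a different receptor tyrosine kinase, Met. In the embryo, limb and muscle tissue supplies GDNF and HGF to motor axons that carry Ret or Met, and both ligands guide motor axons and support motor neuron survival.

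The genotype labels were set against the targeted genes first. Hoxa5 had log2 intensities between 13.94 and 14.03 on the wild-type arrays and between 13.15 and 13.81 on the arrays labelled mutant. Hoxc5 lay between 6.47 and 6.68 on the wild-type arrays and between 6.58 and 7.71 on the arrays labelled mutant. Both genes stayed detected on all 6 arrays. Where their probes lie relative to the deletions is unknown, and the label could not be checked this way, so the text speaks of arrays labelled mutant. All 10 motor neuron markers listed, among them Mnx1, Isl1 and Chat, passed the filter on dim probes. All 6 interneuron markers listed were detected on every array. Summed linear normalized intensity on the wild-type arrays was 16559 to 20705 for the interneuron list and 6427 to 6877 for the motor neuron list. The sums cover different genes and probes, and each is carried by its brightest probes, so they cannot be compared between the lists. The share of each cell type in the samples was not tested. The array labelled mutant 1 stood apart: all 8 mesenchyme markers and all 6 endothelium markers were detected on it, against 2 to 5 and 1 to 3 on the other arrays. All 4 macrophage markers with a probe were detected on it, against 0 or 1 on the others. The median of the 4 tested blood markers was 4.52 log2 units above the wild-type mean there. On wild-type array 1 that median was 1.90 above it. Its Pearson correlation with the other arrays over kept probes was 0.941 to 0.963, where all other pairs were at 0.979 to 0.989. Between 19307 and 20307 probes per array were detected, and having 3 arrays in a group bounds how precise any difference can be.

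A probe counts as detected on an array at a detection p under 0.05, and it was kept for testing where it was detected on at least 3 of the 6 arrays. Of the 15 member probes 5 were kept, covering Ret (2 probes), Gfra1, Gfra3 and Gfra4, and 7 were detected on no array. None of the 4 tested genes passed at a limma adjusted p under 0.05, beside 0% of all 13638 features, of which 250 had an unadjusted p under 0.05. The plot of the 15 probes shows 2 Ret probes well clear of background on every array and most other members close to it.

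**Figure D1:**
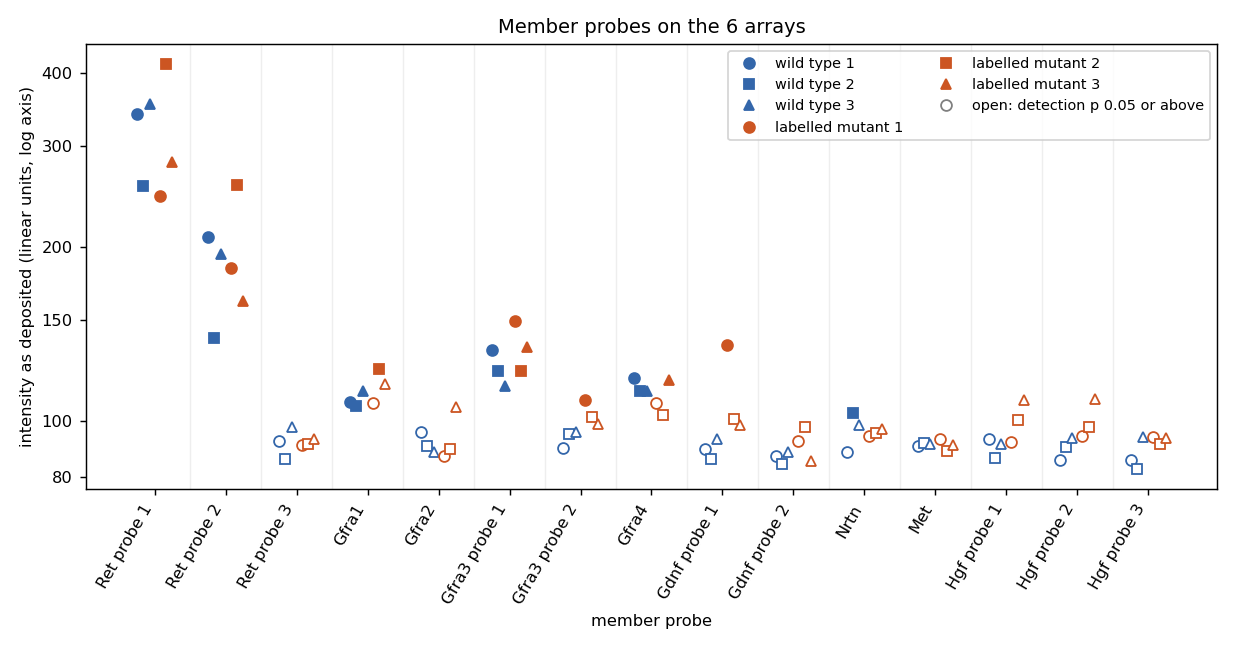
Intensity as deposited, on a log axis, of the 15 member probes on the 3 wild-type arrays (blue) and the 3 arrays labelled mutant (orange), where marker shape gives the replicate number, filled points had a detection p under 0.05 and open points did not. The first 2 Ret probes lie between 139.2 and 415 with every point filled, and the probes of Met, Hgf and Gfra2 are open on all 6 arrays.

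Ret encodes the signalling receptor shared by the GDNF family. Its brightest probe (ILMN_1236477) read 340.7, 255.8 and 354.7 intensity units on wild-type arrays 1 to 3 and 245.5, 415 and 281.3 on the arrays labelled mutant 1 to 3. The highest value of all and the lowest value of all were both on arrays labelled mutant, and the groups overlapped. On the log2 scale, after background correction and quantile normalization, the wild-type mean was 7.96 ± 0.276 (SD, n = 3) and the mean of the arrays labelled mutant was 7.72 ± 0.528 (SD, n = 3). Subtracting wild type from mutant gave a difference of −0.25 (95% confidence interval −0.934 to 0.444, limma adjusted p = 0.997), which is smaller than the SD of either group. With 1 array left out at a time it ran from −0.55 without the array labelled mutant 2 to −0.061 without the array labelled mutant 1.

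The second kept Ret probe (ILMN_3043469) read 208.8, 139.2 and 195.1 on the wild-type arrays and 184, 256 and 161.6 on the arrays labelled mutant. After normalization both probes were highest on the array labelled mutant 2 and next highest on wild-type array 3. For the second probe the difference was 0.044 (−0.767 to 0.856, limma adjusted p = 0.998 over all kept probes), so the sign of the small difference depended on the probe. The third Ret probe (ILMN_2683393) was annotated to another Ret transcript than the other 2, and it lay between 86.2 and 97.6 with no detection on any array. Where these probes bind along the Ret transcripts is not stated in the labels or the annotation.

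Ret was set beside the motor neuron markers array by array. Relative to the wild-type mean, the brightest Ret probe was at −0.61, 0.36 and −0.48 on the arrays labelled mutant 1, 2 and 3. The median of the 10 motor neuron markers was at −0.63, 0.27 and −0.57 on the same arrays. The second kept Ret probe measured 6.68, 7.38 and 6.16 there, against a wild-type mean of 6.70. On the array labelled mutant 1 it thus lay close to its wild-type mean, unlike the brightest probe. The LIM homeobox gene Isl1, which specifies motor neurons, measured 9.40, 10.25 and 9.20 there, against 9.89 to 10.04 on the wild-type arrays. Of the 10 markers, 8 were above their wild-type mean on the array labelled mutant 2, and 1 was above it on each of the arrays labelled mutant 1 and 3. Chat and Slc5a7 were the exceptions on the array labelled mutant 2, at 8.51 and 4.91 against wild-type means of 8.59 and 5.51. On the wild-type arrays the marker median stayed between −0.026 and 0.0083, while the brightest Ret probe was at −0.11, −0.20 and 0.31. Summed over the 10 markers, linear normalized intensity ran from 6427 to 6877 on the wild-type arrays and from 3700 to 8371 on the arrays labelled mutant. On the arrays labelled mutant 1, 2 and 3 the interneuron median was at −0.98, −0.074 and 0.022. The sensory neuron median was at −0.65, −0.096 and −0.055 on them. In sorted bulk samples, fewer motor neurons and less RNA per cell cannot be told apart. The part of the marker variation in the Ret values was not tested.

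**Figure D2:**
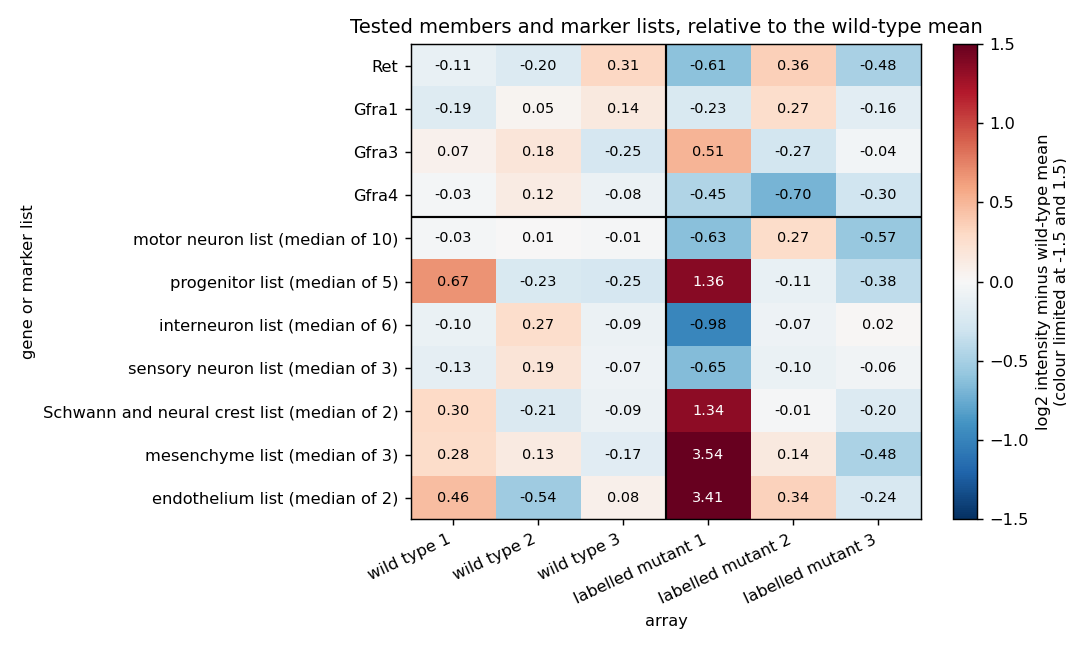
Log2 intensity relative to the wild-type mean on each array (columns, 3 wild type then 3 labelled mutant) for the 4 tested members and for the median of 7 marker lists (rows), printed in each cell and shown as colour limited at −1.5 and 1.5. Ret is shown by its brightest probe. It and the motor neuron list have the same sign on all 3 arrays labelled mutant and on 1 of the 3 wild-type arrays. The mesenchyme list stands at 3.54 on the array labelled mutant 1.

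Gfra1, the co-receptor that GDNF prefers, was close to the detection limit. Its single probe read 107.9, 106.2 and 112.9 on the wild-type arrays, each detected, and 107.7, 123.3 and 116 on the arrays labelled mutant. The array labelled mutant 2 alone was detected in its group, since the detection p was 0.0545 and 0.0502 on the arrays labelled mutant 1 and 3, just over the threshold. The groups overlapped, with the highest value again on the array labelled mutant 2. Mean log2 intensity was 5.08 ± 0.170 (SD, n = 3) against 5.04 ± 0.270 (SD, n = 3), a difference of −0.040 (95% interval −0.489 to 0.408, limma adjusted p = 0.997). Without the array labelled mutant 1 the sign turned, at 0.054.

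Gfra4, the co-receptor of persephin, was the tested member with the most negative difference and was at the detection limit on the arrays labelled mutant. Its probe read 118.6, 112.6 and 112.6 on the wild-type arrays, all detected, and 107.5, 102.5 and 118 on the arrays labelled mutant, where replicate 3 alone was detected. In normalized log2 intensity the wild-type arrays were at 5.26, 5.41 and 5.21, and the arrays labelled mutant at 4.84, 4.60 and 4.996. The normalized groups did not overlap, whereas the intensities as deposited did. The difference was −0.48 (95% interval −0.866 to −0.0994), and it did not pass (unadjusted p = 0.0206, limma adjusted p = 0.997). Of the 4 tested members, Gfra4 was the 1 whose groups did not overlap, beside 2.84% of all 13638 features tested that did so with lower values on the arrays labelled mutant and 2.66% with higher values. An unadjusted p under 0.05, in either direction, was reached by 1.83% of features. The probe passed the filter on dim probes through the wild-type arrays, so the filter itself favours a lower value on the arrays labelled mutant, and the lack of overlap is a description. Under the 18 other settings that gave it a value, the difference ran from −0.57 without the array labelled mutant 3 to −0.16 without background correction. On the arrays labelled mutant 2 of the 3 values lay below detection, and the size of the difference changed with the treatment of background, to −0.24 with an offset of 50.

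Gfra3, the co-receptor of artemin, is known mainly from sensory and sympathetic neurons. Its brighter probe (ILMN_3102260) was detected on all 6 arrays, at 132.6, 122.1 and 115.2 on the wild-type arrays and 148.9, 122 and 134.4 on the arrays labelled mutant. The array labelled mutant 1 was the highest, and the groups overlapped. Mean log2 intensity was 5.58 ± 0.226 (SD, n = 3) against 5.65 ± 0.401 (SD, n = 3), a difference of 0.068 (95% interval −0.498 to 0.633, limma adjusted p = 0.997), and without the array labelled mutant 1 it was −0.15. The other Gfra3 probe (ILMN_3029078) was detected on the array labelled mutant 1 alone, at 108.7 with a detection p of 0.0427. It lay between 89.9 and 95.9 on the wild-type arrays. Of 6 sensory neuron markers with a probe, 3 were detected on every array and the other 3 on none, and the 3 went both ways on the array labelled mutant 1. There Pou4f1 measured 8.48 and Ntrk3 9.19, below wild-type means of 9.49 and 9.84, and Ntrk2 measured 10.67, above a wild-type mean of 9.68. Of the 3 Schwann cell and neural crest markers with a probe, 2 were tested. Sox10 measured 9.06 on that array and 6.09 to 6.90 on the other 5, while Foxd3, at 4.87, lay within its range of 4.46 to 5.13 on the others. Whether such cells contributed to the Gfra3 signal was not tested.

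Gfra2, the co-receptor of neurturin, was detected on no array, with intensities of 88.5 to 95.7 on the wild-type arrays and 87.2 to 105.7 on the arrays labelled mutant. A signal below detection gives no measure of a difference and does not show that the transcript was absent.

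**Figure D3:**
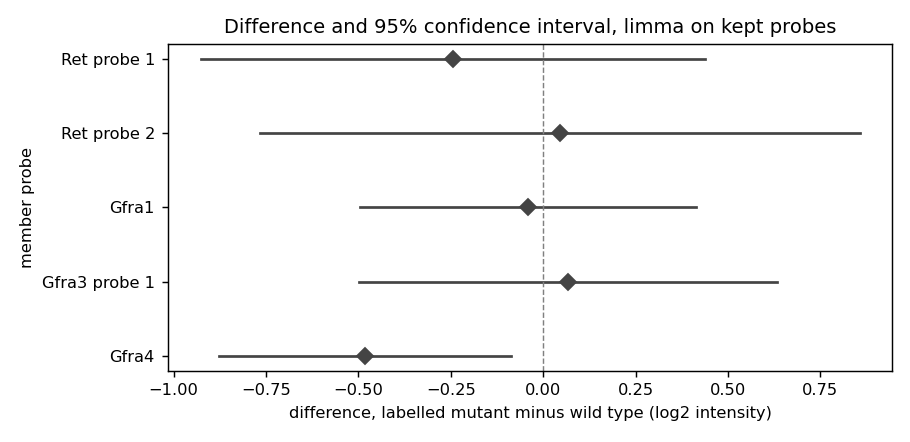
Difference in log2 intensity, labelled mutant minus wild type, for the 5 kept member probes (diamonds) with its 95% confidence interval (lines), from limma on all kept probes. The Gfra4 interval alone lies below 0, and neither Gfra4 nor any other probe passed at an adjusted p under 0.05.

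For the ligands, Gdnf was detected on 1 array of 6. Its brighter probe (ILMN_2659994) read 89.7, 85.9 and 93.2 on the wild-type arrays and 135.3, 100.8 and 98.7 on the arrays labelled mutant, with a detection p of 0.00107 on the array labelled mutant 1. That array was the highest by far and the other 2 of its group were not detected. The measured log2 mean was 4.92 ± 0.751 (SD, n = 3) for the arrays labelled mutant, beside 4.38 ± 0.0508 (SD, n = 3) for wild type. This mean rests on the 1 array that measured it, so no fold is given. The second Gdnf probe (ILMN_2701617) lay between 84.3 and 97.7 and was detected nowhere.

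The array with the Gdnf signal is also the array with the mesenchyme markers. Fbln1, a matrix gene, measured 11.72 there in log2 intensity and 7.70 to 8.50 on the other 5 arrays, and 3 of the 8 mesenchyme markers were detected on that array only. The summed linear intensity of the mesenchyme list was 328.1 to 452.5 on the wild-type arrays and 276.6 to 4407 on the arrays labelled mutant. Muscle markers did not share this, with 2 of 6 detected on the array labelled mutant 1 and 0 to 2 on the others. The part of other cell types in the Gdnf signal was not tested.

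Nrtn, which encodes neurturin, was detected on wild-type array 2 alone, at 103.5 with a detection p of 0.0331. The other 5 arrays lay between 88.4 and 98.6, and the mean of the wild-type group did not exceed the limit that the lowest detected signals set, so no fold is given.

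Met and Hgf form the second receptor and ligand pair. The single Met probe gave 90.7, 91.6 and 91.3 on the wild-type arrays and 93.3, 88.8 and 90.8 on the arrays labelled mutant, detected on none. The range of the arrays labelled mutant took in all 3 wild-type values. The 3 Hgf probes lay between 82.7 and 94 on the wild-type arrays and between 91.3 and 109.2 on the arrays labelled mutant, and none was detected on any array. These are intensities as deposited, and every Hgf value was below the median of its own array. The lowest Hgf detection p was 0.141. Hgf is a ligand made by mesenchyme, and on the array labelled mutant 1, where all 8 mesenchyme markers were detected, its 3 probes had a detection p of 0.490 to 0.637. With every probe fitted and no filter, the 15 member probes had limma adjusted p from 0.989 to 0.996.

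Promoter windows from RefSeq (GRCm38.p6) were read for 6 of the 9 genes, and none was read for Ret, Gfra2 or Gfra3. Member windows on 1 chromosome had been left out, which need not be why each of these genes lacks a window. Windows ran from 250 bases before to 50 after an annotated start. They were searched on both strands for TAAT, the core that many homeodomain proteins bind, and for TGATNNAT, a composite form bound by Hox proteins with Pbx partners. TAAT was present in 58.0% and TGATNNAT in 8.8% of all 32851 windows of this length. Windows are shown for 2 tested co-receptors and for Gdnf, in lower case with matches to either motif in capitals. They are for Gfra1 at chr19:58455349-58455648 (minus strand), Gfra4 at chr2:131042633-131042932 (minus strand) and Gdnf at chr15:7809798-7810097 (plus strand).
Gfra1: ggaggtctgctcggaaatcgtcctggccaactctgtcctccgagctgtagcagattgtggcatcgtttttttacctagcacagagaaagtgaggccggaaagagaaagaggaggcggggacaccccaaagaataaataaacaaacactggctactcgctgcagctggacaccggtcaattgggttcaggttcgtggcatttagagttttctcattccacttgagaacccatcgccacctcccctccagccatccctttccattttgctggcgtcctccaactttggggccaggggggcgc
Gfra4: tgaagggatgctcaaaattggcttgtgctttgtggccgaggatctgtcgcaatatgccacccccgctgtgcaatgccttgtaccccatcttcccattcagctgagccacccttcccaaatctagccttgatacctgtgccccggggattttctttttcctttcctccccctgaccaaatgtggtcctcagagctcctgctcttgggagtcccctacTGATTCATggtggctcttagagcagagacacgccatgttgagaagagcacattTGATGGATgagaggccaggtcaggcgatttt
Gdnf: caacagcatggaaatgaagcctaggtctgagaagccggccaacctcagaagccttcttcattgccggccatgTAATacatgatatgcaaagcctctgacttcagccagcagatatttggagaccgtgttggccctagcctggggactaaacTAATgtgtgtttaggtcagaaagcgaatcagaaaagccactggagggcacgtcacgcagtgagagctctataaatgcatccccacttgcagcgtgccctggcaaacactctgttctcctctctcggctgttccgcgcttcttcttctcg
The Gfra1 window held neither motif, the Gfra4 window held TGATNNAT 2 times and no TAAT, and the Gdnf window held TAAT 2 times. A second annotated Gfra4 start had neither motif in its window, a second Gdnf start had 1 TAAT, the Nrtn window had 1 TGATNNAT, and the Met window had neither. One of the 2 Hgf windows had 1 TAAT and the other had neither. No match overlapped another, and a match describes letters in a window, not a bound site.

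The wider pathway was read from a list of 55 other genes, of which 48 had a probe and 25 were tested. Over these 25, 0 passed in either direction with limma, beside 0% of all 13638 features, and 0 had an unadjusted p under 0.05, beside 1.83% of all features. With every kept probe fitted on its own, 0 of 45 pathway probes passed. An unadjusted limma p under 0.05 was reached by 1 of those 45, beside 375 of 19735 kept probes. No gene of the 25 had groups that did not overlap, where 5.51% of all features did. The differences were split, with 13 above 0 and 12 below 0, and had a median of 0.066 beside −0.014 for all features. Without the array labelled mutant 1 there were 11 above 0 and 14 below 0, with a median of −0.014.

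Among other ligands and receptors, 4 of 9 were tested. Artn, which encodes artemin, was at 5.59, 5.06 and 5.24 on the wild-type arrays and at 5.65, 5.46 and 5.70 on the arrays labelled mutant. Its difference of 0.31 was the smallest unadjusted p of the list, at 0.134 (limma adjusted p = 0.997), and the groups overlapped through wild-type array 1. The proteoglycan gene Sdc3, whose product also binds GDNF, differed by 0.17, and Ncam1, a cell adhesion gene whose product can act as a GDNF receptor, by −0.20. Without the array labelled mutant 1 these were 0.10 and −0.11. Plxnb1, whose product can associate with Met, was at −0.0099. Pspn, which encodes persephin, was detected on no array with either of its probes. Of the 6 genes for activation of HGF, the activator protease gene Hgfac differed by 0.066 (0.013 without the array labelled mutant 1) and the inhibitor gene Spint1 by −0.13, and the other 4 were not tested.

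The adaptors and effectors that carry the signal inside the cell had 5 differences above 0 and 7 below 0 among 12 tested genes. The adaptor gene Shc1 showed the widest spread, at 10.45 on the array labelled mutant 1 and 7.31 to 7.79 on the other 5. Its difference of 0.85 turned to −0.16 without that array. Gab1, an adaptor downstream of Met, differed by 0.25, and by 0.017 without that array. The related adaptor Gab2 was at −0.36, the lipid kinase subunit gene Pik3ca at −0.36 and Dok5, an adaptor that binds Ret, at −0.19. These 3 were at −0.17, −0.033 and −0.067 without the array labelled mutant 1. Of the signalling inhibitors 3 of 8 were tested, with Lrig1, a membrane inhibitor of Ret, at 0.40 and the phosphatase gene Dusp6 at −0.023. Without the array labelled mutant 1 they were at −0.10 and −0.25. None of these genes passed.

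The ETS transcription factor genes include a known readout of GDNF in motor neurons. This is Etv4, also called Pea3, which GDNF from the limb induces in some motor pools. It was detected on the array labelled mutant 1 alone, at 153.4 against 90.7 to 105.7 on the wild-type arrays and 107.2 and 100.2 on the arrays labelled mutant 2 and 3. Etv5 measured 5.49, 4.78 and 4.74 in log2 intensity on the wild-type arrays, 1 of them detected, and 6.12, 5.10 and 5.04 on the arrays labelled mutant, all detected. It passed the filter on dim probes through the arrays labelled mutant, so the filter itself favours a higher value on them. The Etv5 difference was 0.42 (limma adjusted p = 0.997), and 0.067 without the array labelled mutant 1. Etv1 measured 6.97, 6.62 and 6.63 against 7.93, 6.52 and 6.82, a difference of 0.36 that was −0.065 without that array. All 3 ETS genes, like Gdnf, were thus highest on the array that also carried the mesenchyme and endothelium markers. The blood and progenitor medians were highest on it too, at 4.52 and 1.36 above the wild-type mean, and next highest on wild-type array 1. The 1 tested macrophage marker was at 1.22 there on the array labelled mutant 1, while the motor neuron, interneuron and sensory neuron medians were below 0. The part of any of those cells was not tested. Of the genes linked to Pea3 pools in the mouse, the cadherin gene Cdh7 differed by −0.42. Its difference was −0.13 without the array labelled mutant 1, and −0.39 with its other kept probe. The cadherin gene Cdh8 differed by 0.14, and Sema3e was not tested. Other kept probes of Gab2, Etv1, Etv5, Dok5 and Ncam1 gave smaller differences of the same sign, except that 1 of the 2 for Ncam1 gave a larger one. They were at −0.022 for Gab2, 0.12 for Etv1, 0.13 for Etv5, −0.054 and −0.077 for Dok5, and −0.013 and −0.30 for Ncam1. Other kept probes of pathway genes beyond these and Cdh7 are not given here.

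**Figure D4:**
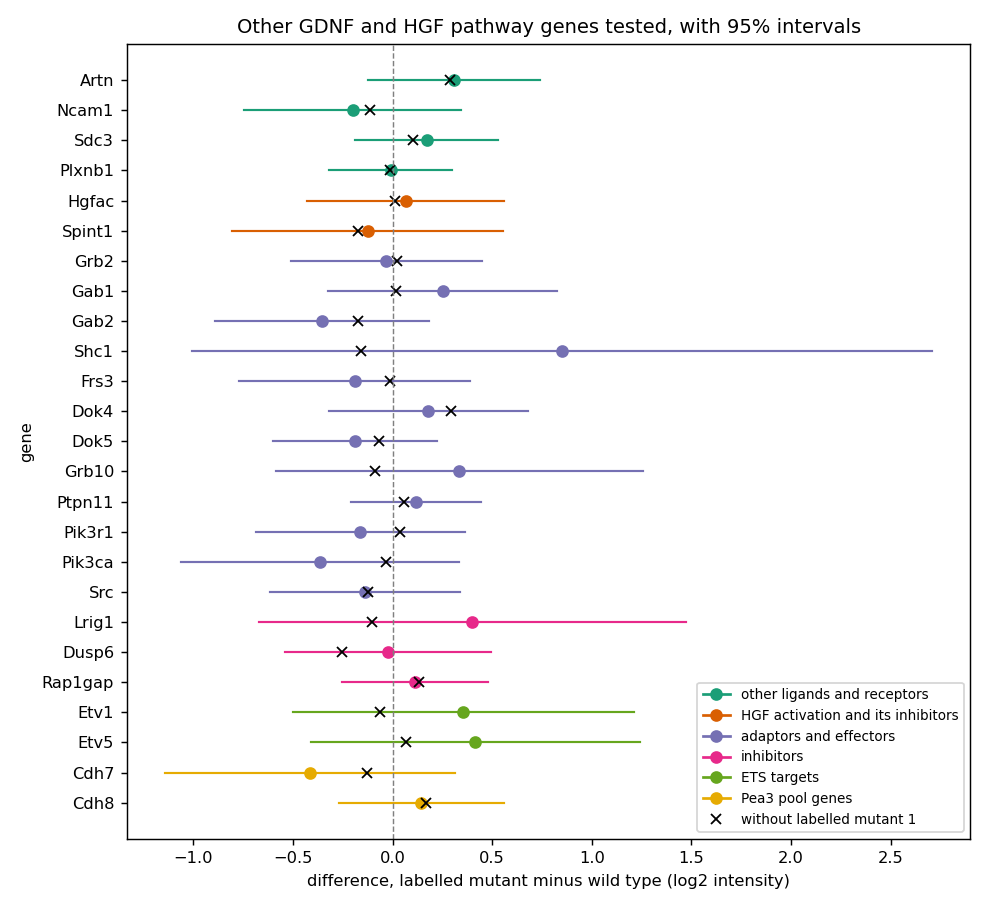
Difference in log2 intensity, labelled mutant minus wild type, of the 25 other pathway genes tested (points, coloured by role) with 95% confidence intervals (lines), and the difference without the array labelled mutant 1 (crosses). Every interval includes 0, and the crosses for Shc1, Etv1, Lrig1, Grb10, Pik3r1 and Grb2 lie on the other side of 0 from their points.

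For the 2 members detected on all 6 arrays, the named genes with the most similar values over the arrays were listed among 10437 others. For Ret these were Cdh22, Mrrf and Cdon, with a Pearson correlation of 0.982, 0.977 and 0.973 over 6 arrays. Over the 5 arrays without the array labelled mutant 1, the 3 most similar genes were Ptprd, Slc39a3 and Myom1 instead, at 0.999, 0.996 and 0.994. For Gfra3 they were Atf7, Numb and Id3, at 0.994, 0.992 and 0.991 over 6 arrays, and Esrra, Atf7 and Ypel3, at 0.995, 0.991 and 0.990, without that array. All these genes were read on the same few arrays, and the values are a description.

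The results for the 4 tested members are plotted under all settings tried. None passed in any of them.

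**Figure D5:**
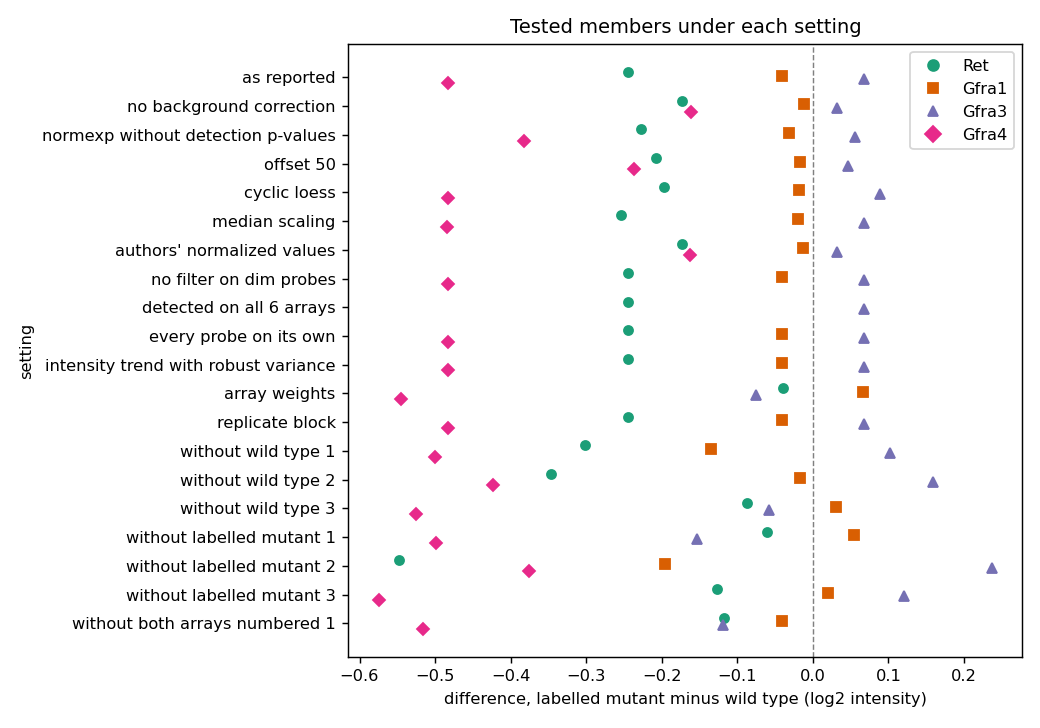
Difference in log2 intensity, labelled mutant minus wild type, of Ret, Gfra1, Gfra3 and Gfra4 (symbols) as reported and under 19 other settings (rows). Gfra4 and Ret, each shown by its brightest probe, lie below 0 in every row that has their symbol, whereas Gfra1 and Gfra3 cross 0.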

How the data were processed

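Per the file headers, the first deposited table pairs an unnormalized linear intensity with a detection p-value for each probe on each array. A second deposited table holds intensities normalized by the authors, which quantile normalization of the first matched within 1.43% for every probe. Scanner software, scanner background subtraction, slides and genome build are not stated in the labels or files. Groups came from the sample titles, and 0 columns matched no sample.

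Intensities were background-corrected by normexp from the detection p-values with an offset of 16 (limma 3.58.1, R 4.3.3), put on the log2 scale and quantile normalized. Probes detected at p under 0.05 on at least 3 of 6 arrays were kept, 19735 of 45281. Of all probes 34885 had 1 symbol in the platform annotation, 18 had several and 10378 had none there. The brightest kept probe stood for a gene, giving 13638 features. Differences came from a limma model of genotype alone (lmFit, eBayes), and p-values were adjusted over all features by Benjamini-Hochberg. The fit was tested on simulated data.

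Named were the 9 members, Etv1, Etv4 and Etv5, the 5 tested pathway genes with the smallest p in each direction, the targeted genes and Hoxb5, and motor neuron markers. Other genes, such as Plxnb1, Hgfac, Spint1, Lrig1, Dusp6, Cdh8, Pspn, Sema3e, Sox10, Foxd3, Pou4f1, Ntrk2, Ntrk3, Slc5a7 and Fbln1, were named after their values were seen. The members and lists were chosen with earlier results of these data known. Hoxb5 was at −0.29 with overlapping groups. The alternatives were other background, normalization, filter, probe and test choices, the replicate number as a block, and leaving out arrays.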

Additional observations from a re-analysis of the deposited data

Results flagged for a closer look

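A Gdnf probe that was outside the test was detected on the array labelled mutant 1, at an intensity of 135.3, above all wild-type arrays (85.9 to 93.2). The second Gfra3 probe, also outside the test, was detected on the same array at 108.7, above all wild-type arrays (89.9 to 95.9). Its detection p there was 0.0427, just under the threshold. Its values on the arrays labelled mutant 2 and 3, 101.8 and 98.8, were not detected and also lay above all wild-type arrays. These are intensities as deposited, and the array medians ran from 97.7 on wild-type array 2 to 109.8 on the array labelled mutant 3. Single outlying values were not looked for within these groups of 3.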

How the results depend on the processing

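Across 19 other settings, 0 members passed, and 0 of the other pathway genes passed. The number of features past an adjusted p of 0.05 was 0 in all settings except without the array labelled mutant 3, where it was 1 (Cops8), so it ran from 0 to 1 with 1 array left out. By its brightest probe Ret was below 0 in all 19, at −0.040 under array weights, while its second kept probe was at 0.044, and Gfra4 was below 0 in the 18 that gave a value. The Gfra1 difference changed sign under array weights, to 0.066, and ran from −0.20 to 0.054 with 1 array left out. The Gfra3 difference changed sign under array weights, to −0.075, and without both arrays numbered 1, to −0.12, and ran from −0.15 to 0.24 with 1 array left out. The causes were not tested, apart from the arrays left out. Gfra1 and Gfra4 had no value when detection on all 6 arrays was required. Same-numbered arrays of the groups had deviations correlated at 0.32, 0.013 and 0.10. No values for differently numbered arrays are given beside them, so they cannot decide whether the numbers pair samples. The main fit took no pairing. With the replicate number as a block the differences were −0.25 for Ret, −0.040 for Gfra1, 0.068 for Gfra3 and −0.48 for Gfra4, 0 features passed, and 379 features had an unadjusted p under 0.05 against 250 without it. The mean number of detected probes differed by −4.33 (two-sided exact permutation p = 1), a test that cannot go below 0.1 with 3 against 3. Signal over background limits Met, Hgf, Gfra2, Nrtn and Gdnf, whose probes lay at or below detection on most arrays.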
